A study of Homo sapiens with 12 samples.

Results

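The matrix metalloproteinases (MMPs) are zinc-dependent enzymes that cut collagens, elastin, laminins and other proteins outside the cell, and the tissue inhibitors of metalloproteinases (TIMPs) bind their active sites. A total of 10 genes of these families, out of 23284 gene symbols measured, were examined: MMP1, MMP2, MMP7, MMP12, MMP14, MMP15 and MMP28 and the inhibitors TIMP1, TIMP2 and TIMP3. They were taken by symbol, and 16 further MMP genes and TIMP4 are described after them.

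RNA sequencing was performed on PANC-1, a line from a human pancreatic ductal carcinoma, carrying a retroviral ZsGreen reporter fused to the degron of ornithine decarboxylase, which gathers in cells with low proteasome activity. There were 12 libraries, 2 in each of 6 groups. Degron (++) cells, the brightest cells of a population enriched by repeated sorting, were sampled without irradiation (0 Gy) at 48 h, and with 4 Gy of gamma rays at 30 h and at 48 h. Degron (−) cells, the infected population with few ZsGreen-positive cells, were sampled under the same conditions. Both populations carry the reporter and were cultured with G418. Nothing states whether the replicates of a group were separate cultures, so the p-values measure the spread between these libraries, which may be technical. The libraries of degron (−) cells are called ZsGreen-negative in their titles but d+ in their descriptions, and titles were followed here. The labels do not give the starting point of the hours.

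Values are FPKM, fragments per kilobase of exon scaled to the reads mapped, which allow levels of genes of unlike length to be set side by side. The sum of FPKM lay between 829654 and 916877 in degron (++) and between 707273 and 763064 in degron (−) libraries. Comparisons between libraries therefore depend on the scaling. The number of reads behind a value is unknown, and from the steps between low values the relative depth of the libraries lay between 0.869 and 1.16. Differences are given on the scale log2(FPKM + 1), which understates the change of genes with low FPKM. They were tested with limma over 12946 genes, and a gene is said to have risen or fallen when the Benjamini-Hochberg adjusted p was under 0.05. Each of the 12 libraries was most similar to one from the same population.

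The populations were checked against markers of the labelled line and of other cells. The 6 epithelial markers all reached 1 FPKM in both populations. All 6 were higher in degron (++) cells in each condition, as were 32.9% of all tested genes. KRT8, a keratin of simple epithelia, lay between 2488 and 2981 FPKM in degron (++) and between 1732 and 2118 in degron (−) libraries. CDH1 lay between 62.8 and 66.6 FPKM in degron (++) and between 6.56 and 12.8 in degron (−) libraries. EPCAM lay between 176.2 and 204.7 FPKM in degron (++) and between 29.9 and 52.8 in degron (−) libraries. VIM, the mesenchymal filament protein vimentin, lay between 2376 and 2711 FPKM in degron (−) cells and between 13.2 and 19.2 in degron (++) cells. Of the other mesenchymal markers, ZEB1 was also higher in degron (−) cells, while CDH2, between 41.2 and 45.0 FPKM in degron (++) and between 4.74 and 9.68 in degron (−) cells, and FN1 were higher in degron (++) cells. PANC-1 is known for the loss of CDKN2A on chromosome 9p, yet CDKN2A lay between 100.4 and 111.9 FPKM in degron (++) cells and between 11.04 and 21.1 in degron (−) cells. For CDKN2A, CDKN2B and MTAP, which lie side by side, degron (−) libraries held 8.91% to 29.4% of the mean of degron (++) libraries under the same condition. The degron (++) libraries therefore go against the labelled line in these genes, and the degron (−) libraries carry a lesser amount of the same transcripts. Since they are all the libraries of one population, no comparison of the populations can be given without them. In bulk RNA, fewer cells that express a gene and less of its RNA in each cell cannot be told apart. Of 8 macrophage markers, PTPRC, CSF1R, TYROBP and CD163 stayed at or under 0.110 FPKM in all 12 libraries, and the summed level of the list lay between 4.52 and 6.49 FPKM in degron (++) and between 125 and 166 in degron (−) libraries. CD68 lay between 124.3 and 164.8 FPKM in degron (−) and between 2.91 and 4.62 in degron (++) libraries, and CD14 lay between 0.187 and 1.023 and between 1.45 and 1.92. Of 8 fibroblast markers, summed to between 14.9 and 25.8 FPKM in degron (++) and between 37.2 and 54.0 in degron (−) libraries, LUM was the main one in degron (++) and COL1A1 in degron (−) cells. The 4 endothelial and the 4 acinar markers stayed under 1 FPKM in all libraries.

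MMPs are made as inactive precursors. Some are secreted, such as MMP1, an interstitial collagenase, MMP2, the gelatinase A, MMP7, the small enzyme matrilysin, MMP12, the macrophage elastase, and MMP28, epilysin. MMP14 and MMP15 are anchored in the cell membrane, and MMP14 at the cell surface activates MMP2 in a complex in which TIMP2 serves as the adaptor. TIMP1 and TIMP2 are soluble and TIMP3 is bound to the matrix. In pancreatic carcinoma these enzymes are known from work on invasion and on the dense stroma.

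Promoter sequences from RefSeq (GRCh38.p14) were at hand for 5 of the 10 genes, MMP7, MMP14, MMP15, TIMP1 and TIMP3. The files themselves were made on hg19, and the coordinates here are not on that build. The 250 bases before the start are printed for MMP14 and MMP15, which were both higher in degron (++) cells, for MMP7, which was lower, and for TIMP1, whose level was nearly equal. Capitals mark matches, searched on both strands, to the AP-1 motif (TGANTCA), to the TATA box (as TATAAA) and to the GC box bound by Sp1 (as GGGCGG). None of the matches shown overlap each other.
MMP14 (chr14:22836335-22836584, plus strand): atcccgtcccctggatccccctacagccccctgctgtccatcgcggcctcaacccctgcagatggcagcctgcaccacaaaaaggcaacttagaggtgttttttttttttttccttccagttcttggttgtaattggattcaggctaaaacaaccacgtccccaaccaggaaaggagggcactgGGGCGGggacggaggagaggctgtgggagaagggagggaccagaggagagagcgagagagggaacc
MMP15 (chr16:58025504-58025753, plus strand): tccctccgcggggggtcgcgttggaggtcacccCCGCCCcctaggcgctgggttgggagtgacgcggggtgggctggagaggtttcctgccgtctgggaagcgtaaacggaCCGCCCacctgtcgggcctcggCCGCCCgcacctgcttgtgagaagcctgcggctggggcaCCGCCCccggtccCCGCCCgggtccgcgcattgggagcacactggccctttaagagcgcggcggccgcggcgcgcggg
MMP7 (chr11:102530748-102530997, minus strand): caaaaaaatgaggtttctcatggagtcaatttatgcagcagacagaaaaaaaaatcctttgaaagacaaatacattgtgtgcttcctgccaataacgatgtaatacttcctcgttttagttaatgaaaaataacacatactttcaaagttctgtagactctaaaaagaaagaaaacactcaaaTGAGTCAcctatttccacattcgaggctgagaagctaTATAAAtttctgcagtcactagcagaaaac
TIMP1 (chrX:47582186-47582435, plus strand): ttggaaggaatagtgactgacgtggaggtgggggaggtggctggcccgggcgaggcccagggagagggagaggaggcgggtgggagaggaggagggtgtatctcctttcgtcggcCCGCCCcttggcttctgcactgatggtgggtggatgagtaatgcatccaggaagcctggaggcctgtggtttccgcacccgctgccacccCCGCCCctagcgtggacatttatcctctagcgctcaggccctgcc

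Only MMP7 of these 5 promoters held an AP-1 match, at 67 bases before the start, and a TATA box match, at 30 bases before it. AP-1 matches were in 6.57%, TATA box matches in 10.7% and GC box matches in 42.6% of the 35116 promoter windows of the same length. The window of MMP15 held 5 GC box matches and 31 CpG dinucleotides, TIMP3 had 5 and 26, TIMP1 had 2 and 12, MMP14 had 1 and 7, and MMP7 had 0 and 3, against a median of 11 CpG dinucleotides over all windows. MMP14 and MMP15, which moved together between the populations, thus differed in these letters. A match describes the sequence only, and binding was not measured.

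**Figure D1:**
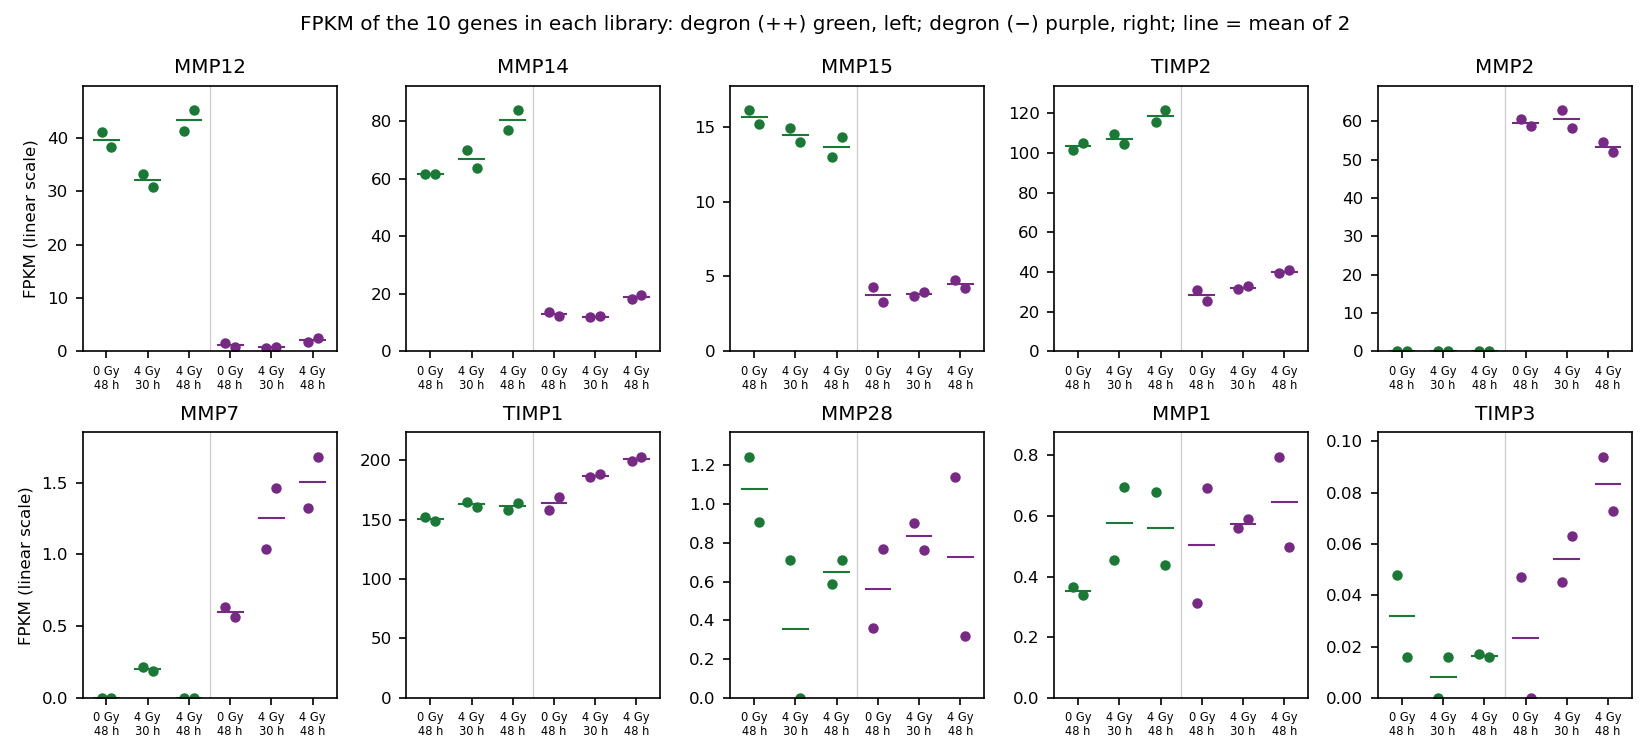
FPKM (linear axis, each panel with its own range) of the 10 genes in each of the 12 libraries, with a dot per library and a line at the mean of the 2 libraries of a group. MMP12, MMP14, MMP15 and TIMP2 were higher in all 6 degron (++) libraries (green), MMP2 and MMP7 were higher in all 6 degron (−) libraries (purple), and TIMP1, MMP28, MMP1 and TIMP3 overlapped.

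The populations differed most in which MMPs they expressed. Degron (++) cells had MMP12, MMP14, MMP15 and TIMP2 at higher levels, and degron (−) cells had MMP2 and MMP7. Without irradiation, 4 of the 8 tested genes were higher and 3 lower in degron (++) cells, while 77.7% of all tested genes passed the threshold, 37.6% higher and 40.2% lower. A share this near the background is not a result about the family. The counts were again 4 and 3 with 4 Gy at 30 h, where 79.1% of all tested genes passed (38.3% higher, 40.8% lower). They were 4 and 3 also with 4 Gy at 48 h, where 76.7% did (37.1% higher, 39.6% lower). The same 7 genes passed in 1 direction in all 3 comparisons, as did 32.9% of all tested genes on the higher and 35.6% on the lower side. MMP1 and TIMP3 did not reach 1 FPKM in any library and were not tested. MMP2 and MMP7 reached it only in degron (−) cells, so they entered the test through the population in which they were higher. The median log2 difference of the 8 tested genes was 1.11 at 0 Gy, 0.74 with 4 Gy at 30 h, and 0.70 after 4 Gy at 48 h, while that of all tested genes lay between -0.02 and -0.01. The members were chosen with earlier results of these data known, so their median is not a test of the family. It was -0.67 at 0 Gy for the 3 further MMP genes that were tested. Of the 8 tested members, 6 had no overlap between the 6 libraries of each population, 4 with degron (++) cells above and 2 below. This was so for 71.3% of all tested genes, with 34.1% above and 37.2% below.

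MMP12, an elastase named for its expression in macrophages, was far higher in degron (++) cells. In these cells it had 41.2 and 38.2 FPKM when unirradiated, 33.3 and 30.8 with 4 Gy at 30 h, and 41.4 and 45.2 after 4 Gy at 48 h. In degron (−) cells it had 1.58 and 0.768 FPKM when unirradiated, 0.662 and 0.848 with 4 Gy at 30 h, and 1.75 and 2.43 after 4 Gy at 48 h. Every degron (++) library was above every degron (−) library. The ratio of mean FPKM was 33.8, 42.4 and 20.7 in these conditions, and the log2 difference was 4.25 ± 0.17, 4.24 ± 0.17 and 3.85 ± 0.17 (SE, adjusted p = 3.3e-08, 2.82e-08 and 7.01e-08, limma). Of the macrophage markers, PTPRC, CSF1R, TYROBP and CD163 stayed at or under 0.110 FPKM in the same libraries, and LYZ at or under 0.074. ITGAM lay between 0.358 and 0.895 FPKM in degron (−) and between 0 and 0.018 in degron (++) libraries. CD68 was higher in degron (−) cells and CD14 in degron (++) cells, with a log2 difference of 1.07 at 0 Gy (adjusted p = 0.000496, limma), and their part in the difference of MMP12 was not tested.

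MMP14, also known as MT1-MMP, was the most abundant MMP of degron (++) cells. It had 61.5 and 61.5 FPKM when unirradiated, 70.0 and 63.6 with 4 Gy at 30 h, and 77.0 and 83.8 after 4 Gy at 48 h. In degron (−) cells it had 13.9 and 12.4, 12.04 and 12.2, and 18.1 and 19.4 FPKM in the same order. The lowest degron (++) library stood above the highest degron (−) library by a wide margin, and the ratio of means was 4.68, 5.51 and 4.28. The log2 difference was 2.15 ± 0.07, 2.37 ± 0.07 and 2.04 ± 0.07 (SE, adjusted p = 8.32e-09, 3.89e-09 and 1.33e-08, limma).

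MMP15, the closely related membrane-type enzyme MT2-MMP, was lower in level than MMP14 in both populations. Degron (++) cells had 16.1 and 15.1 FPKM when unirradiated, 14.9 and 14.0 with 4 Gy at 30 h, and 13.0 and 14.3 after 4 Gy at 48 h. Degron (−) cells had 4.30 and 3.27, 3.70 and 3.94, and 4.75 and 4.20 FPKM. The groups did not overlap in any condition. The log2 difference was 1.80 ± 0.10, 1.68 ± 0.10 and 1.42 ± 0.10 (SE, adjusted p = 3.3e-07, 4.71e-07 and 1.83e-06, limma).

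TIMP2, which inhibits MMPs and links pro-MMP2 to MMP14, was higher in degron (++) cells along with MMP14. It had 101.5 and 105.2 FPKM when unirradiated, 109.6 and 104.3 with 4 Gy at 30 h, and 115.5 and 121.6 after 4 Gy at 48 h in these cells. In degron (−) cells the values were 31.0 and 25.4, 31.6 and 32.9, and 39.3 and 40.8 FPKM. Again no library of one population reached the other. The log2 difference was 1.85 ± 0.08, 1.70 ± 0.08 and 1.54 ± 0.08 (SE, adjusted p = 5.28e-08, 7.53e-08 and 1.89e-07, limma).

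MMP2, a gelatinase that cuts denatured collagen and type IV collagen, went the other way and showed the largest difference of the family. Degron (−) cells had 60.6 and 58.7 FPKM when unirradiated, 62.9 and 58.2 with 4 Gy at 30 h, and 54.5 and 52.0 after 4 Gy at 48 h. Degron (++) cells had 0.027 and 0.052, 0.152 and 0.133, and 0.112 and 0.157 FPKM. The log2 difference was -5.87 ± 0.06, -5.75 ± 0.06 and -5.58 ± 0.06 (SE, adjusted p = 2.38e-11, 2.53e-11 and 2.45e-11, limma). With a pseudocount of 0.1 in place of 1 it was -8.75, -7.97 and -7.84. Degron (++) cells therefore had transcripts of the MMP2 activator MMP14 and of the adaptor TIMP2 with hardly any of MMP2, and degron (−) cells had all 3.

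MMP7, which is expressed by many epithelial carcinomas, was low in both populations. Degron (−) cells had 0.632 and 0.562 FPKM when unirradiated, 1.04 and 1.46 with 4 Gy at 30 h, and 1.32 and 1.68 after 4 Gy at 48 h. In degron (++) cells MMP7 was listed at 0 in both libraries at 0 Gy and in both after 4 Gy at 48 h, and at 0.212 and 0.185 FPKM with 4 Gy at 30 h. The log2 difference, which here depends on the pseudocount, was -0.68 ± 0.11, -0.90 ± 0.11 and -1.32 ± 0.11 (SE, adjusted p = 0.000378, 5.1e-05 and 4.34e-06, limma).

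TIMP1, the most abundant of the 10 genes in both populations, differed little. Degron (++) cells had 152.4 and 148.5 FPKM when unirradiated, 164.7 and 160.9 with 4 Gy at 30 h, and 158.0 and 164.3 after 4 Gy at 48 h. Degron (−) cells had 158.1 and 169.2, 186.1 and 188.2, and 199.5 and 203.0 FPKM. The groups of each condition did not overlap, though the ranges over all conditions did. The log2 difference was -0.12 ± 0.04 when unirradiated (adjusted p = 0.0192), -0.20 ± 0.04 with 4 Gy at 30 h (adjusted p = 0.00118) and -0.32 ± 0.04 after 4 Gy at 48 h (adjusted p = 6.11e-05; SE, limma). At 0 Gy the call was lost without degron (++) replicate 2 (-0.10, adjusted p = 0.0995, limma), without degron (−) replicate 2 (-0.07, adjusted p = 0.144, limma) and in a fit of only these 4 libraries (adjusted p = 0.0782, limma).

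MMP28, MMP1 and TIMP3 were near the lower end of expression. MMP28 had 1.25 and 0.909, 0.712 and 0, and 0.587 and 0.713 FPKM in degron (++) cells in the same order of conditions, and 0.362 and 0.766, 0.905 and 0.764, and 1.14 and 0.318 in degron (−) cells. Its log2 difference was 0.42, -0.49 and -0.03 (adjusted p = 0.206, 0.143 and 0.94, limma), with 95% confidence intervals from -0.23 to 1.06, from -1.13 to 0.16 and from -0.67 to 0.62. Without degron (++) replicate 1 with 4 Gy at 30 h, which leaves the library listed at 0, it was -0.87 (adjusted p = 0.0212, limma). MMP1 lay between 0.339 and 0.696 FPKM in degron (++) and between 0.312 and 0.796 in degron (−) libraries, and the groups overlapped in each condition. TIMP3 lay between 0 and 0.048 and between 0 and 0.094 FPKM. In a fit without the filter, over 18487 genes, the log2 difference of MMP1 was -0.14, -0.0028 and -0.08 (adjusted p = 0.442, 1 and 0.692, limma) and that of TIMP3 was 0.01, -0.06 and -0.09 (adjusted p = 0.77, 0.0821 and 0.022, limma). A strand setting for the assignment of reads is not given in the sources used here, and TIMP1, TIMP3 and MMP28 share their locus with SYN1, SYN3 and C17orf50, which were at most at 0.317, 0.034 and 0.108 FPKM.

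**Figure D2:**
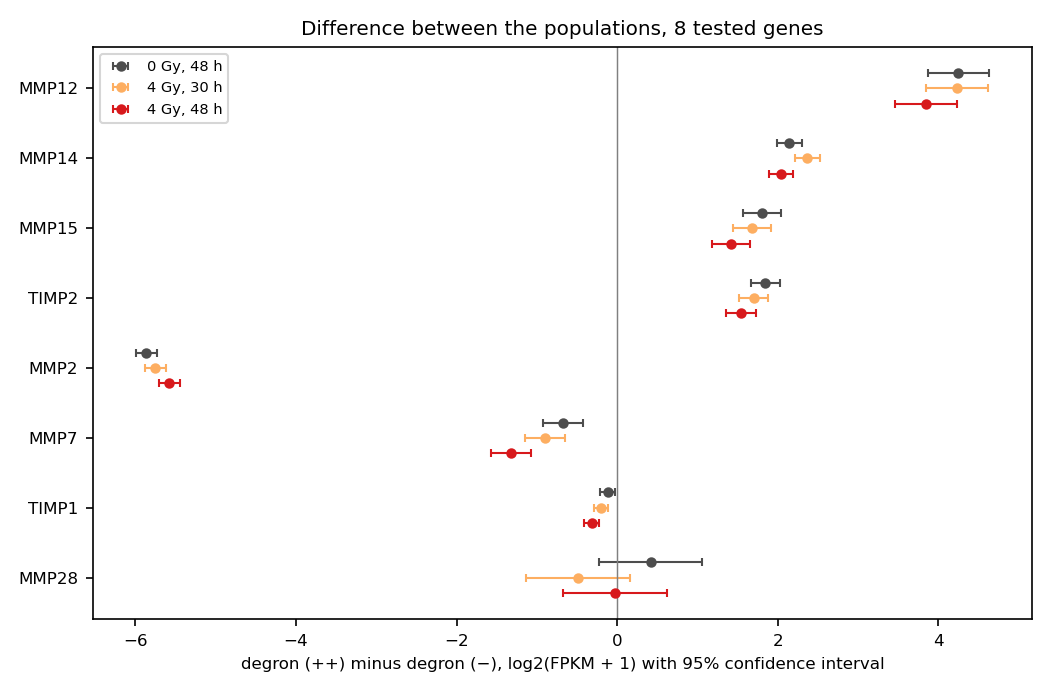
Differences in log2(FPKM + 1) between degron (++) and degron (−) cells for the 8 tested genes, with a point per condition and bars for the unadjusted 95% confidence interval. MMP12, MMP14, MMP15 and TIMP2 stand right of 0, MMP2 stands farthest left near -5.87 to -5.58, and TIMP1 and MMP28 stand near 0.

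Rescaling each library to the same sum of FPKM moved the median log2 difference of all genes from -0.02 to -0.21 at 0 Gy, and the genes past the threshold were then 35.9% higher in degron (++) cells against 48.3% without it. The directions of the 7 genes past the threshold held under this rescaling and under quantile normalization. TIMP1 at 0 Gy had a log2 difference of -0.33 after the rescaling, beside the median of -0.21.

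As levels per length, the order within degron (++) cells was TIMP1, TIMP2, MMP14, MMP12 and MMP15, and the ranges of these 5 genes over 6 libraries did not touch. MMP28 and MMP1 followed, with ranges that overlapped each other, and the range of MMP28, which reached 0, also covered those of MMP2, MMP7 and TIMP3. In degron (−) cells the order was TIMP1, MMP2, TIMP2, MMP14 and MMP15, again with separate ranges, and then MMP12, MMP7, MMP28 and MMP1, whose ranges overlapped, with TIMP3 last. The 7 MMPs summed to between 109.4 and 144.6 FPKM in degron (++) and between 77.2 and 82.4 in degron (−) libraries. MMP14 held 51.1% to 58.5% and MMP12 27.8% to 34.2% of this sum in degron (++) cells, whereas MMP2 held 64.6% to 76.9% in degron (−) cells. The 3 TIMPs summed to between 253.8 and 285.9 FPKM in degron (++) and between 189.1 and 243.9 in degron (−) libraries. The sum of MMPs over that of TIMPs ranged from 0.412 to 0.506 in degron (++) and from 0.330 to 0.432 in degron (−) libraries. These ranges over all conditions overlapped while the make-up did not. Within each condition the ratio was higher in degron (++) cells without overlap. It was 0.474 and 0.458 against 0.432 and 0.396 at 0 Gy. With 4 Gy it was 0.437 and 0.412 against 0.376 and 0.353 at 30 h, and 0.485 and 0.506 against 0.345 and 0.330 at 48 h. TIMP1 over TIMP2 ranged from 1.35 to 1.54 in degron (++) and from 4.97 to 6.67 in degron (−) libraries. MMP14 over TIMP2 ranged from 0.584 to 0.689 and from 0.372 to 0.489, so MMP14 differed more than TIMP2 between the populations.

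**Figure D3:**
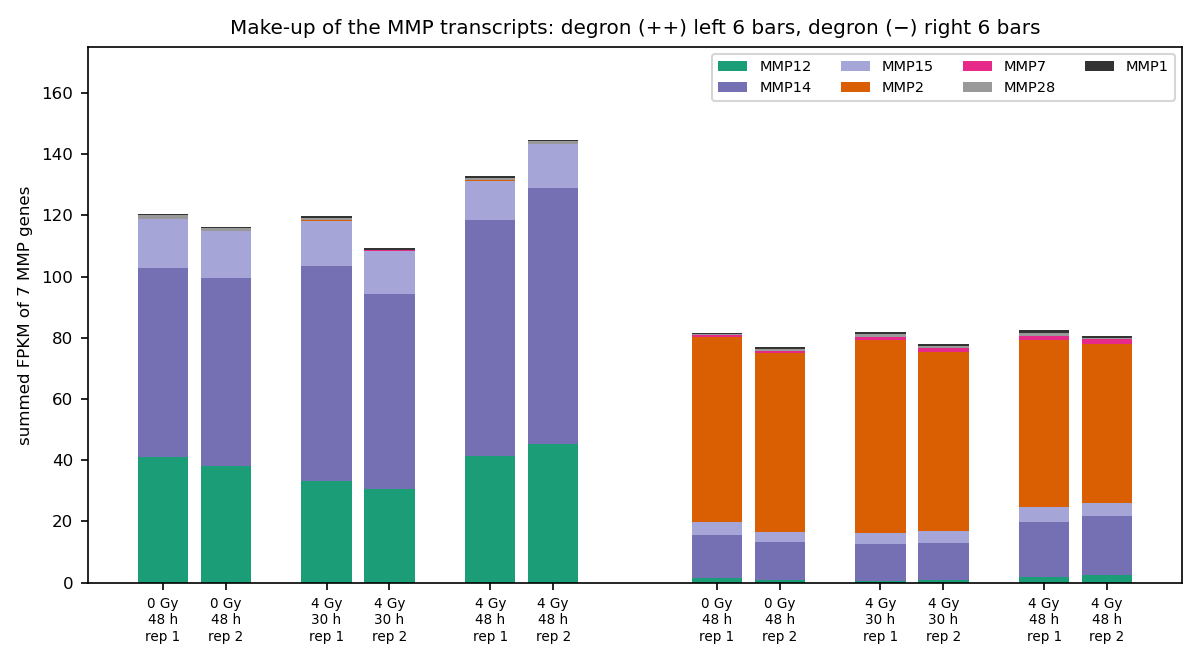
Stacked FPKM of the 7 MMP genes in each library, with degron (++) libraries in the left 6 bars and degron (−) libraries in the right 6. MMP14 and MMP12 make up most of each degron (++) bar, and MMP2 makes up 64.6% to 76.9% of each degron (−) bar.

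MMP7, MMP1 and MMP12 belong to a cluster of 9 MMP genes on chromosome 11, whose order by RefSeq is MMP7, MMP20, MMP27, MMP8, MMP10, MMP1, MMP3, MMP12 and MMP13. Only MMP12 went above 2 FPKM there. Its neighbours MMP3, a stromelysin, and MMP13, a collagenase, had medians of 0.172 and 0.017 FPKM in degron (++) cells, against 39.7 for MMP12. MMP3 was between 0.101 and 0.364 FPKM in degron (++) and between 0 and 0.175 in degron (−) libraries. MMP27, MMP8 and MMP10 were listed at 0 in all 12 libraries. MMP7, at the other side of the cluster, had a median of 1.18 FPKM in degron (−) cells and was listed at 0 in 4 of 6 degron (++) libraries.

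**Figure D4:**
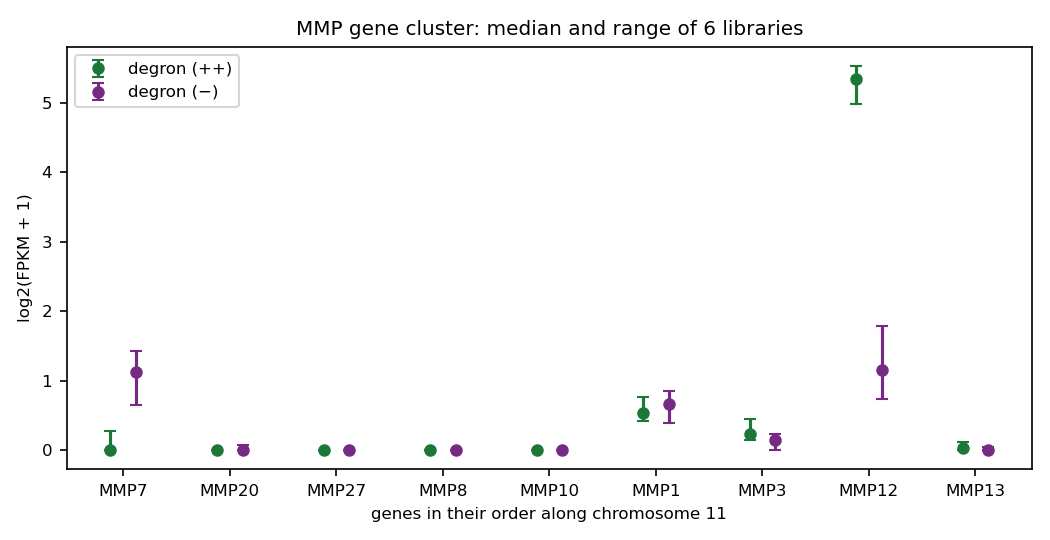
The 9 MMP genes of the cluster on chromosome 11 in their order along the chromosome (even spacing, not distance), as the median log2(FPKM + 1) of 6 libraries with bars from the lowest to the highest. MMP12 in degron (++) cells stands alone, and the gene next to it on each side is close to 0 in both populations.

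The effect of irradiation was compared at 48 h within each population. In degron (++) cells, MMP14 rose by a ratio of means of 1.31, with a log2 difference of 0.38 ± 0.07 (SE, adjusted p = 0.0356, limma), and was the only 1 of 8 tested members past the threshold, against 1.82% of all tested genes (1.42% higher, 0.402% lower). This call was lost when any of the 4 libraries was left out (log2 difference 0.32 to 0.44, adjusted p from 0.0868 to 0.182, limma). MMP12 had a log2 difference of 0.12 (adjusted p = 0.778, limma) and TIMP2 of 0.20 (adjusted p = 0.251, limma). In degron (−) cells, MMP14, MMP7, TIMP1 and TIMP2 rose and no member fell, against 4.73% of all tested genes past the threshold (3.85% higher, 0.873% lower). MMP14 rose by 0.49 ± 0.07 (adjusted p = 0.00684), TIMP2 by 0.50 ± 0.08 (adjusted p = 0.012), TIMP1 by 0.30 ± 0.04 (adjusted p = 0.00581) and MMP7 by 0.65 ± 0.11 (adjusted p = 0.0159) on the log2 scale (SE, limma). MMP2 had a log2 difference of -0.16 and MMP12 of 0.52 (adjusted p = 0.156 and 0.122, limma). Without degron (−) replicate 2 after 4 Gy at 48 h none of the 4 calls held (adjusted p from 0.0525 to 0.104, limma), and without degron (−) replicate 2 at 0 Gy those of MMP14 and MMP7 did not (adjusted p = 0.0508 and 0.086, limma). All 4 calls were lost when the 4 compared libraries were fitted alone (adjusted p from 0.157 to 0.179, limma), and that of TIMP1 after TPM rescaling (0.28, adjusted p = 0.0588, limma). Without degron (−) replicate 1 at 0 Gy, MMP12 also passed (0.80, adjusted p = 0.0311, limma).

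The time points at 4 Gy were compared in the same way, sharing the libraries after 4 Gy at 48 h with the comparison of doses. There was no unirradiated group at 30 h, so a change with time after 4 Gy cannot be told apart from one with time in culture. No member passed the threshold in degron (++) cells (limma), where 1.21% of all tested genes did (0.657% higher, 0.548% lower) and 2050 genes had an unadjusted p under 0.05, while MMP12, MMP14 and MMP7 had unadjusted p-values of 0.0345, 0.00383 and 0.0418 (limma). In degron (−) cells, MMP14 rose by 0.59 ± 0.07 (adjusted p = 0.00163) and MMP12 by 0.81 ± 0.17 (adjusted p = 0.0252) on the log2 scale between 30 h and 48 h (SE, limma), against 7.18% of all tested genes (6.01% higher, 1.17% lower). Both calls were lost when only the compared libraries were fitted (adjusted p = 0.0781 for MMP14 and 0.113 for MMP12, limma). TIMP2 had a log2 difference of 0.31 ± 0.08 (SE, adjusted p = 0.0546, limma), which passed with the filter at 5 FPKM (adjusted p = 0.0487), quantile normalization (0.0491) and TPM rescaling (0.0367). The call of MMP12 was lost without degron (−) replicate 1 or 2 at 30 h, or replicate 2 at 48 h (adjusted p = 0.143, 0.073 and 0.175, limma).

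Neither the dose nor the time effect of any member differed past the threshold between the populations (limma), with 0.0772% of all tested genes past it for dose (0.0232% higher, 0.0541% lower) and 3.23% for time (0.51% higher, 2.72% lower). At an unadjusted p under 0.05 (limma) there were 1758 of 12946 tested genes for dose and 2316 for time. Of the 8 tested members, 5 were among them for dose, MMP7, MMP2, MMP15, TIMP1 and TIMP2, and 2 for time, MMP7 and MMP14. The interaction of dose was -0.11 for MMP14, with a 95% confidence interval from -0.32 to 0.11, and -0.40 for MMP12, from -0.94 to 0.14. Of the 5 members that rose in degron (−) cells in either comparison, MMP14, TIMP2 and MMP12 had their higher level in degron (++) cells, and TIMP1 and MMP7 had not. In degron (−) cells the share of CDKN2A, CDKN2B and MTAP relative to degron (++) cells had a median of 16.2% when unirradiated, 11.5% with 4 Gy at 30 h and 19.3% after 4 Gy at 48 h. The mean FPKM of MMP12 and MMP14 in degron (−) cells had the same order. Those of TIMP2 (28.2, 32.2 and 40.05) and MMP15 (3.79, 3.82 and 4.48), also higher in degron (++) cells, did not. CDKN2A, CDKN2B and MTAP all rose between 30 h and 48 h, and 0 of 3 passed the threshold between the doses (limma). Their part in the differences within degron (−) cells was not tested.

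**Figure D5:**
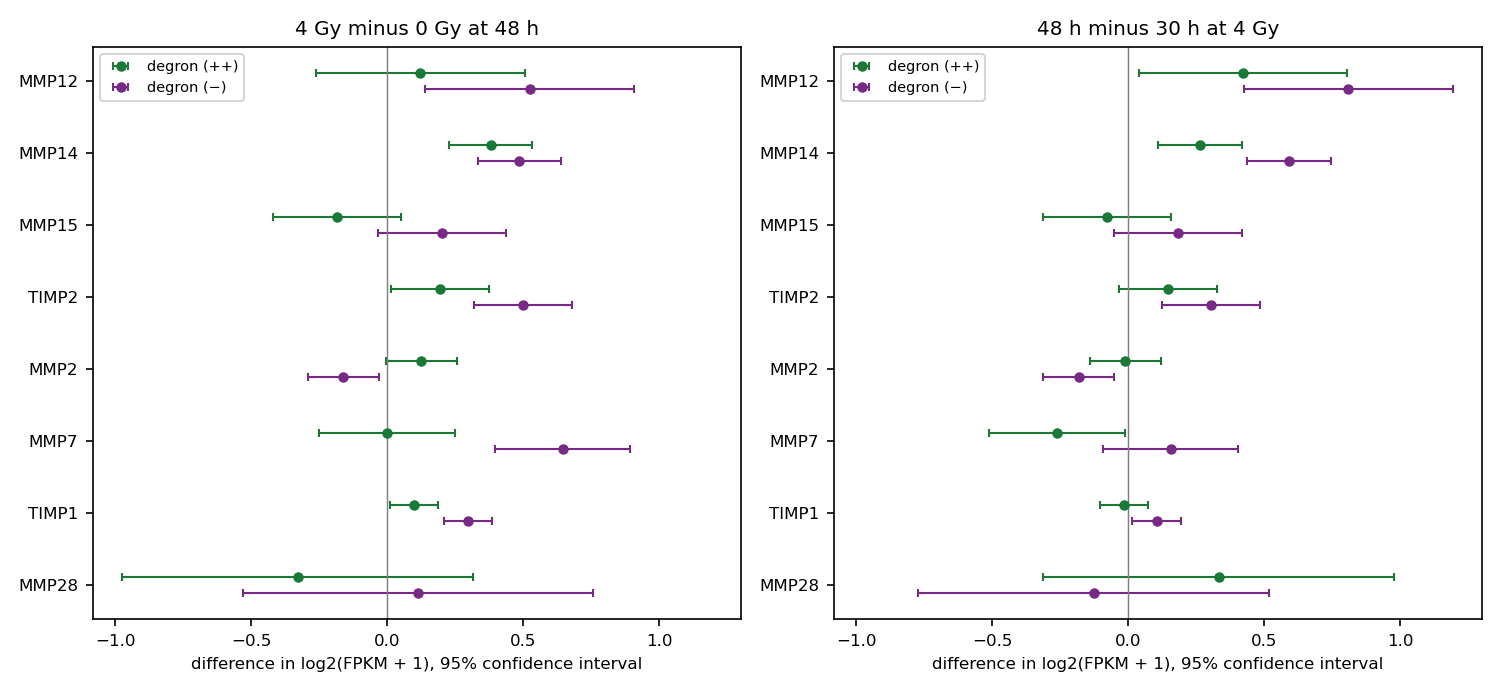
Differences in log2(FPKM + 1) between doses (left) and time points (right) for the 8 tested genes, with degron (++) in green, degron (−) in purple and bars for the unadjusted 95% confidence interval. The largest of the differences plotted is that of MMP12 in degron (−) cells between 30 h and 48 h, at 0.81.

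Of 16 further MMP genes, 3 were tested, and all 3 were lower in degron (++) cells in each condition. MMP17, a membrane-type enzyme held by a lipid anchor, lay between 1.31 and 1.84 FPKM in degron (++) and between 6.33 and 8.47 in degron (−) libraries, with a log2 difference of -1.62 ± 0.12 at 0 Gy (SE, adjusted p = 1.98e-06, limma). MMP24 and MMP16, 2 other membrane-type enzymes, had log2 differences of -0.67 and -0.39 (adjusted p = 0.000133 and 0.00396, limma). The membrane-type MMPs thus split, with MMP14 and MMP15 higher and MMP16, MMP17 and MMP24 lower in degron (++) cells. MMP9, the other gelatinase, reached 0.522 FPKM at most. Of 4 further inhibitors, RECK, a membrane-bound inhibitor of MMPs, was lower, with 0.240 to 0.296 FPKM in degron (++) and 2.01 to 2.45 in degron (−) libraries (log2 difference -1.36 ± 0.08 at 0 Gy, SE, adjusted p = 5.58e-07, limma). TIMP4 was higher, with 1.18 to 2.24 and 0.058 to 0.388 FPKM (0.80 ± 0.19, SE, adjusted p = 0.00376, limma). RECK reached 1 FPKM only in degron (−) cells and TIMP4 only in degron (++) cells, so each entered the test through the population in which it was higher. A2M and TFPI2 were not tested.

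Genes that act on MMP precursors or on their expression were read from lists. Of 10 tested genes of the proprotein convertases, the plasminogen activator system and the membrane serine proteases, 5 were higher and 2 lower at 0 Gy, with a median log2 difference of 0.26, beside 37.6% higher and 40.2% lower and a median of -0.02 over all tested genes. ST14, the membrane protease matriptase, PCSK5, a proprotein convertase, and PLAUR, the urokinase receptor, were higher by 2.42, 2.41 and 2.08 on the log2 scale (adjusted p = 9.63e-09, 1.5e-08 and 3.04e-09, limma). PLAU, urokinase itself, lay between 162.2 and 187.0 FPKM in degron (++) and between 248.0 and 326.1 in degron (−) libraries. The 13 genes of this list summed to between 507.1 and 605.6 FPKM in degron (++) and between 730.9 and 1037 in degron (−) libraries. FURIN, which cuts pro-MMP14 inside the cell, lay at 0.04 (adjusted p = 0.595, limma). Of 14 tested AP-1 and ETS factors, with the MMP inducer BSG among them, 4 were higher and 8 lower at 0 Gy (median -0.48), where 77.7% of all tested genes passed, 37.6% higher and 40.2% lower. FOSB reached 1 FPKM only in degron (−) cells, so it entered the test through that population. ELF3, an epithelial ETS factor, was higher by 3.41, and FOSL1, an AP-1 subunit, ETS2 and ETV5 had log2 differences of -1.35, -1.20 and -1.09 (adjusted p = 6.99e-09, 2.3e-08, 3.38e-08 and 2.63e-06, limma).

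The related ADAM and ADAMTS proteases, which shed membrane proteins or cut proteoglycans, were 9 higher and 2 lower of 11 tested at 0 Gy (median 0.94), against 37.6% and 40.2% of all tested genes. ADAM12 and ADAMTS9 reached 1 FPKM only in degron (++) cells, and ADAM19 only in degron (−) cells. Each of them entered the test through the population in which it was higher. ADAM8, ADAM15 and ADAMTS1 were higher by 2.31, 1.49 and 1.39, and ADAM19 had a log2 difference of -2.47 (adjusted p = 2.08e-08, 4.28e-08, 3.48e-07 and 6.52e-09, limma). Of 13 tested genes of basement membrane and fibronectin, which are substrates of these enzymes, 11 were higher and 1 lower (median 1.40), against the same shares of all tested genes. No elastic fibre gene was tested, since ELN and FBN1 reached at most 0.080 and 0.374 FPKM. COL4A3, COL4A4 and COL4A6 reached 1 FPKM only in degron (++) cells, so they entered the test through the population in which they were higher. This list and that of the ADAM and ADAMTS genes were chosen with earlier results of these data known. COL4A4, a chain of type IV collagen, FN1, fibronectin, LAMA3, a laminin chain, and COL4A5 had log2 differences of 3.17, 2.42, 2.35 and 2.17 (adjusted p = 3.04e-09, 3.79e-08, 1.66e-09 and 2.03e-08, limma). Within degron (++) cells, 1 of 10 activators, 2 of 14 factors, 1 of 11 ADAM and ADAMTS genes and 1 of 13 substrates rose with dose. None of them fell, and 1.42% of all tested genes were higher. In degron (−) cells 4, 4, 3 and 4 of them rose with dose and none fell, against 3.85% of all tested genes higher. Between 30 h and 48 h, 3, 2, 2 and 9 rose in degron (−) cells, against 6.01% of all tested genes. In degron (++) cells 1 substrate rose and 1 factor fell, against 0.657% higher and 0.548% lower.

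The genes whose pattern over the 12 libraries was most like that of a member were sought by Pearson's r of log2(FPKM + 1) among 12945 genes. For MMP12 they were FAM129B, WBP11 and ARRDC1 (r = 0.999 each), for MMP2 SLIT3, PAF1 and IGF2BP1 (r = 0.9999, 0.9998 and 0.9998), and for TIMP2 OTUD1, CCDC71L and TGFBR2 (r = 0.999, 0.998 and 0.997). The libraries fall into 2 populations, and such values are common in these data. A total of 670 genes reached r of 0.99 with MMP12, 1186 with MMP2 and 194 with TIMP2, so a high r mostly restates the difference between the populations. PAF1, for example, averaged 45.0 FPKM in degron (++) and 737.4 in degron (−) libraries, and SLIT3 averaged 0.0285 and 15.3.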

How the data were processed

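RNA of 12 libraries was measured with a stranded mRNA library kit. The authors deposited FPKM for 23284 gene symbols per library, with replicates kept apart. The submitters' processing notes name TopHat2 2.1.1, Bowtie2 2.2.8, SAMtools 0.1.18, Cuffdiff 2.2.1 and hg19. The annotation is not given in the sources used here. FPKM hold no counts, so no intervals for counting error were made, and MIR622 alone held 22.5% to 30.0% of the sum of FPKM in a library. From these values, log2(FPKM + 1) was fitted with limma 3.58.1 (eBayes with trend, R 4.3.3) with 6 group means over all 12 libraries, which share one estimate of the spread, on 12946 genes that reached 1 FPKM in 2 or more of them. Of the 10 genes, 8 passed this filter. There were 9 comparisons, each adjusted over all genes tested. Named genes were the 10 members and, from each list, up to 4 genes with the largest log2 difference at 0 Gy among those past the threshold, in 1 direction, in all 3 population comparisons. The 3 genes most like a member were sought for the MMPs with the largest rise and fall and the TIMP with the largest difference. A gene that this rule names is not reported here. FURIN, PLAU, MMP9, MMP3 and MMP13, genes at 0, and markers were named after their values were seen. The members and lists were chosen with earlier results of these data known. The fit was tested on simulated data. Alternatives were another pseudocount, no filter or a filter at 5 FPKM, quantile normalization, rescaling to a sum of 1000000 (TPM), eBayes without trend, a replicate block, fits of only the libraries compared, and leaving out each library. Python 3.11.15, pandas 2.3.3 and matplotlib 3.10.9 were used.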

Additional observations from a re-analysis of the deposited data

How the results depend on the processing

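Between the populations, the calls of MMP12, MMP14, MMP15, TIMP2, MMP2 and MMP7 held under every alternative in which the gene was tested, while that of TIMP1 at 0 Gy did not. No called value of a member changed sign among the alternatives run, though values that were not past the threshold did (MMP28 after 4 Gy at 48 h, from -0.37 to 0.32 with each library left out). Of the member values, 874 stayed on their side of the threshold, 28 lost it and 8 gained it. The counts of members past the threshold were less stable within populations. For dose in degron (++) cells the count was 1, and it was 2 with a pseudocount of 0.1 and 0 without the filter, after TPM rescaling, without trend and when only the compared libraries were fitted, and 0 to 0 with each library left out. For dose in degron (−) cells it was 4, 0 when only the compared libraries were fitted, and 0 to 5 with each library left out. For time it was 0 in degron (++) cells, 1 with a pseudocount of 0.1, and 2 in degron (−) cells, 0 when only the compared libraries were fitted and 1 to 2 with each library left out. For the difference in time effects it was 0, and 1 with a pseudocount of 0.1 (MMP7). The fits of only the compared libraries have fewer residual degrees of freedom. For the other settings the cause was not tested. Over all genes, 236 passed for dose in degron (++) cells (17 to 248 under other settings), 612 in degron (−) cells (8 to 654), 156 and 930 for time (12 to 162 and 7 to 965), 10 for the difference in dose effects (2 to 35) and 418 for that in time effects (128 to 475). With each library left out the counts were 1 to 36, 115 to 364, 15 to 25, 281 to 665, 0 to 18 and 67 to 379. TPM rescaling moved the share of higher genes among those past the threshold for dose in degron (++) cells from 78.0% to 59.7%. With the replicate number as a block, the count for dose in degron (++) cells was 0 in place of 1, and no other count of members moved past 1.5 times. Deviations of libraries with the same number correlated between -0.0382 and 0.122 over 15 pairs of groups, and 2 pairs were over 0.1, so the numbers were not taken as pairs. Over all genes the block gave 125 for dose and 88 for time in degron (++) cells and 2 for the difference in dose effects.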
